A study of Homo sapiens with 12 samples.

Results

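Vehicle-treated KMS-12 cells were compared with vehicle-treated RPMI8226 cells, 2 established human multiple myeloma lines, by total RNA sequencing. The comparison uses 4 of the 12 libraries of the series, 2 from KMS-12 and 2 from RPMI8226, chosen by their labels: cell line and DMSO. All 4 carry the genotype label WT, and both lines were kept in the same serum-supplemented medium and received the DMSO volume used to deliver JQ1, a BET bromodomain inhibitor, to the treated plates. The other libraries are from JQ1-treated KMS-12 and RPMI8226 (1 µM for 72 h) and from KMS-11 with JQ1 or DMSO, and they entered the model only to estimate the spread and where they are named below. Each class of myeloma stands here as 1 line, so a driver gene and every other property of its line cannot be told apart.

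Multiple myeloma is a cancer of plasma cells, the antibody-secreting end stage of the B cell lineage. Rearrangements into an immunoglobulin locus often activate a driver early in the disease, among them the D-type cyclin CCND1, the histone methyltransferase NSD2 and the basic leucine zipper factor MAF. D-type cyclins activate CDK4 and CDK6 and so release cells into S phase, and MAF is known in myeloma for raising CCND2 and the integrin chain ITGB7. The pair was set up as a CCND1-high against a MAF-high line, so the levels of those genes below describe the lines and carry no test.

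The 4 libraries held 22833280 and 22338449 counts in KMS-12, against 18515363 and 21728530 counts in RPMI8226. Values are CPM (counts scaled to a common library size), with the library sizes corrected by the trimmed mean of M-values (TMM). Separate cultures for the replicates are not stated in the labels. P-values therefore reflect only how far libraries of the same group spread, which may be technical. That spread was estimated over all 6 groups of the 12 libraries, KMS-11 and JQ1 included. A chi-square test on the counts of replicate pairs gave 6.13 per degree of freedom in KMS-12 and 7.20 in RPMI8226, beyond the value of sampling alone, so no pair was counted as 1 library. The nuclear RNA MALAT1 took 8.06% and 9.01% of the counts in KMS-12, against 4.11% and 4.58% in RPMI8226. Markers of other cell types had higher sums in RPMI8226 than in KMS-12. The genes named for each list are examples without a read, while other members had reads. Called were 81.8% of the T and NK markers tested, 100% of the myeloid, 75% of the stromal, endothelial and epithelial and 50% of the erythroid and megakaryocyte ones. Over all genes 62.5% were called. T and NK cell markers summed to between 22.9 and 23.5 CPM in KMS-12 and between 51.3 and 54.9 CPM in RPMI8226, with 6 of 11 tested members higher and 3 lower; TRAC, TRBC1 and NKG7 had no read in any of the 4 libraries. Myeloid markers summed to between 48.14 and 52.99 CPM in KMS-12, against 217.5 and 218.9 CPM in RPMI8226, with 1 of 10 higher and 9 lower; ELANE and FCGR3A had no read. Stromal, endothelial and epithelial markers summed to between 46.25 and 54.37 CPM in KMS-12, against 82.63 and 86.45 CPM in RPMI8226, with 2 of 8 higher and 4 lower, and COL1A2, VWF and CDH5 had no read. Of the erythroid and megakaryocyte markers only 2 of 14 could be tested, with 0 higher and 1 lower and sums of 5.202 and 5.572 CPM in KMS-12, against 9.433 and 9.628 CPM in RPMI8226; HBB had no read. The part of such cells in the results below was not tested, and in bulk RNA fewer cells of a type and less RNA per cell cannot be told apart.

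Most of the measured transcriptome differed between the lines. Of 23493 genes tested, 14685 (62.5%) passed edgeR's quasi-likelihood test (adjusted p by Benjamini-Hochberg under 0.05), 6879 (29.3%) higher and 7806 (33.2%) lower in KMS-12. At least 2-fold differences made up 4343 of the higher genes (18.5% of those tested) and 5567 of the lower genes (23.7%). With a background this wide, a called gene is not unusual, and counts in gene lists are read against it. Most list members are protein-coding genes, for which the share called was higher, at 69.4%. A list share near either value does not set a list apart. The median log2 difference over all genes was -0.03 and the median size of a difference was 0.93. Called genes were 69.4% of the 14238 protein-coding genes tested, 61.2% of the 1981 long intergenic non-coding RNA genes and 27.2% of the 162 small nucleolar RNA genes.

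The driver genes separated the lines without overlap. CCND1 had 620 and 549 CPM in KMS-12, against 30.9 and 29.5 CPM in RPMI8226, a log2 difference of 4.27 (SE 0.12). CCND2, the D-type cyclin abundant in RPMI8226, had no read in either KMS-12 library and 1042 and 1106 CPM in RPMI8226. MAF likewise had no read in KMS-12, against 1176 and 964 CPM in RPMI8226. Against a floor of 3 reads over the 2 libraries of a line, CCND2 was at least 19930-fold lower and MAF at least 19630-fold lower in KMS-12. Per kb of annotated exon, CCND1 stood at 121 CPM in KMS-12 and CCND2 at 150 CPM in RPMI8226, while CCND3 stood at 2.76 CPM per kb in KMS-12 and 2.01 CPM per kb in RPMI8226. CCND3 averaged 16.0 ± 0.848 CPM in KMS-12 and 11.7 ± 0.182 CPM in RPMI8226 (SD, n = 2), a log2 difference of 0.46 (SE 0.16; edgeR, Benjamini-Hochberg adjusted p = 0.0165). Its call was lost without KMS-12 replicate 1 (edgeR, Benjamini-Hochberg adjusted p = 0.103) and without either RPMI8226 library (0.0651 and 0.0883), and over the alternatives its adjusted p reached 0.745, against a fold of 1.5.

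**Figure D1:**
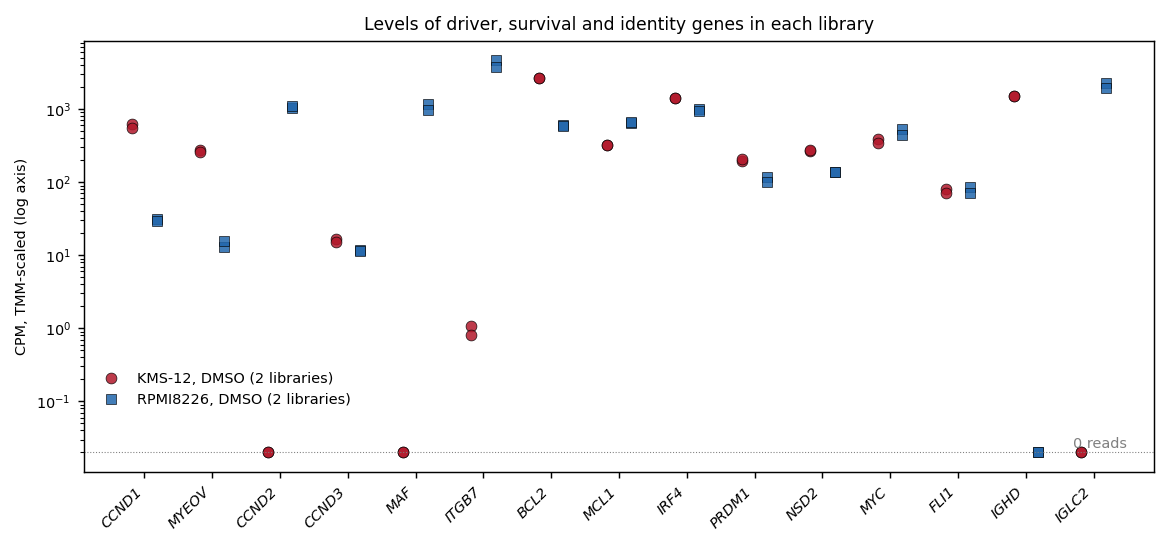
CPM (log axis) of 15 genes in each library, KMS-12 as red circles left of RPMI8226 as blue squares; genes without a read are drawn on the dotted line. CCND1, MYEOV and IGHD lie higher in KMS-12, CCND2, MAF, ITGB7 and IGLC2 in RPMI8226, while the libraries of the lines interleave only for FLI1.

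The neighbourhoods of both drivers differed too. MYEOV, which lies between the CCND1 gene and the centromere (chromosome 11, 69294138 to 69367726, GRCh38), had 276 and 263 CPM in KMS-12, against 13.03 and 15.56 CPM in RPMI8226, a log2 difference of 4.23 (SE 0.23; edgeR, Benjamini-Hochberg adjusted p = 5.64e-08). LINC02953, a long non-coding RNA nearer to CCND1, averaged 30.0 CPM in KMS-12 and 0.0948 CPM in RPMI8226, and the pseudogene IFITM9P averaged 27.0 CPM in KMS-12 with no read in RPMI8226. On the far side of CCND1, FADD, a death receptor adaptor, averaged 25.8 CPM in KMS-12 and 22.8 CPM in RPMI8226 (edgeR, Benjamini-Hochberg adjusted p = 0.263). SHANK2, a scaffold protein gene beyond it, had 0 and 0.0364 CPM in KMS-12, against 54.3 and 55.6 CPM in RPMI8226. Beside MAF (chromosome 16, 79585843 to 79600714, minus strand), the long non-coding RNA LINC01229 had no read in KMS-12 and 540 and 478 CPM in RPMI8226, at least 9370-fold lower in KMS-12. MAFTRR, a non-coding RNA in the same stretch, had no read in KMS-12 and averaged 2.64 CPM in RPMI8226. WWOX, the oxidoreductase gene on the other side of MAF, averaged 7.02 CPM in KMS-12 and 13.3 CPM in RPMI8226, a log2 difference of -0.93 (SE 0.19; edgeR, Benjamini-Hochberg adjusted p = 0.00033).

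A reference promoter, that of MAF, is shown because MAF is the driver without a read in KMS-12, with its 16 CG dinucleotides in capitals; 47.5% of the 35116 promoter windows in the table have as many CG or more (median 14). The window runs from 250 bases before to 50 bases after the RefSeq start (GRCh38.p14, chr16:79600688-79600987, minus strand, given 5′ to 3′). CG reads the same on both strands, and neither line's own sequence or methylation was measured here.
MAF: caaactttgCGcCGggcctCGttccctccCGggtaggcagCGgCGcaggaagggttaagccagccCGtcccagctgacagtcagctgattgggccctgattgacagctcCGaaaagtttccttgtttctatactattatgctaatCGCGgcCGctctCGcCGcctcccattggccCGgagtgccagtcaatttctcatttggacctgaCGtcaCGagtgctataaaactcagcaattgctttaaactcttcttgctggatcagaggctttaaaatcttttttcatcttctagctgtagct

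Most genes linked to MAF in myeloma were low where MAF was. Of 10 such genes drawn up for this work, 1 was higher and 7 were lower in KMS-12 (80% called, beside 62.5% of all genes). The median log2 difference was -11.00, or -9.41 with genes lacking reads at their bound, beside -0.03 over all genes. ITGB7, the β7 integrin chain through which myeloma cells bind marrow stroma, had 1.07 and 0.801 CPM in KMS-12, against 4652 and 3752 CPM in RPMI8226. That is a log2 difference of -12.12 (SE 0.48; edgeR, Benjamini-Hochberg adjusted p = 2.38e-08). CCR1, a chemokine receptor, had no read in KMS-12 and 216 and 159 CPM in RPMI8226. CX3CR1, another chemokine receptor, averaged 0.144 CPM in KMS-12 and 43.6 CPM in RPMI8226. DEPTOR, an inhibitor of mTOR often high in myeloma, averaged 78.0 CPM in KMS-12 and 87.8 CPM in RPMI8226 and did not pass the test (edgeR, Benjamini-Hochberg adjusted p = 0.334). TNFRSF19 went the other way, with 6.34 and 5.64 CPM in KMS-12 and no read in RPMI8226.

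Among 11 genes that immunoglobulin rearrangements activate in myeloma, 5 were higher and 3 lower in KMS-12 (72.7% called, beside 62.5% of all genes). The list includes CCND1 and MAF, by which the pair was set up, so their calls were set by the choice of lines. NSD2 averaged 271.5 ± 4.01 CPM in KMS-12 and 138.5 ± 2.14 CPM in RPMI8226 (SD, n = 2), a log2 difference of 0.97 (SE 0.16; edgeR, Benjamini-Hochberg adjusted p = 7.98e-05). FGFR3, the receptor gene activated together with NSD2 in such tumours, was near 0 in both lines, at 0.0720 CPM in KMS-12 and 0.0247 CPM in RPMI8226. MYC, the growth regulator that most myeloma lines express, had 384 and 349 CPM in KMS-12, against 530 and 437 CPM in RPMI8226. The groups did not overlap, but the log2 difference of -0.40 (SE 0.19) did not pass the test (edgeR, Benjamini-Hochberg adjusted p = 0.0832), and it did pass in 5 of the alternatives: the 4 libraries alone (0.000849), the 6 DMSO libraries (0.0252), no filter (0.00178), a replicate block (0.00571) and DESeq2 (0.0306).

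BCL2, which holds back mitochondrial cell death, had 2692 and 2704 CPM in KMS-12, against 613 and 590 CPM in RPMI8226, a log2 difference of 2.16 (SE 0.11; edgeR, Benjamini-Hochberg adjusted p = 6.05e-12). MCL1, the short-lived survival protein on which many plasma cells depend, had 326 and 324 CPM in KMS-12, against 651 and 659 CPM in RPMI8226, a log2 difference of -1.01 (SE 0.11; edgeR, Benjamini-Hochberg adjusted p = 2.93e-07). Per kb of exon, BCL2 lay above MCL1 in KMS-12 (229 against 74.3 CPM per kb) and below it in RPMI8226 (51.15 against 150 CPM per kb). BCL2L1, which encodes BCL-XL, averaged 22.9 ± 2.11 CPM in KMS-12 and 38.5 ± 4.52 CPM in RPMI8226 (SD, n = 2) and did not pass the test (edgeR, Benjamini-Hochberg adjusted p = 0.109; the alternatives ran between 1.43e-05 in the 4 libraries alone and 0.312 against a fold of 1.5). Of 14 BCL2 family members tested, 6 were higher and 2 lower, a share called of 57.1% beside 62.5% of all genes. The death-promoting BH3 protein HRK was higher in KMS-12, at 17.9 and 20.6 CPM against 4.49 and 3.10 CPM in RPMI8226, and BMF, another BH3 protein, was lower, at 39.7 and 32.8 CPM against 92.9 and 89.2 CPM in RPMI8226.

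Immunoglobulin genes gave each line its own signature. IGHD, the δ heavy chain constant gene, had 1525 and 1496 CPM in KMS-12 and no read in RPMI8226, and so was at least 22360-fold higher in KMS-12. The λ light chain gene IGLC2 had no read in KMS-12 and 2295 and 1940 CPM in RPMI8226, at least 38900-fold lower in KMS-12. IGLC3 and IGKC, the κ constant gene, had no read in KMS-12 either, against averages of 595 and 111 CPM in RPMI8226. IGHG1 and IGHG4 were higher in KMS-12, IGHG1 at 18.97 CPM against 1.785 CPM in RPMI8226, whereas IGHG2 was lower, at 0.451 CPM against 19.1 CPM in RPMI8226. Of the 12 constant genes tested, 4 were higher and 6 lower (83.3% called, beside 62.5% of all genes). Counts of near-identical copies such as IGLC2 and IGLC3 are uncertain.

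Both lines expressed the defining plasma cell genes, with lower levels of most secretory markers in KMS-12. Of 25 plasma cell genes tested, 5 were higher and 17 lower in KMS-12 (88% called, beside 62.5% of all genes), with a median log2 difference of -1.40. IRF4, the transcription factor on which myeloma cells depend, averaged 1424 ± 26.1 CPM in KMS-12 and 978 ± 38.4 CPM in RPMI8226 (SD, n = 2), a log2 difference of 0.54 (SE 0.11; edgeR, Benjamini-Hochberg adjusted p = 0.00037), a call lost against a fold of 1.5 (0.57). PRDM1, the plasma cell repressor of B cell genes, had 194 and 206 CPM in KMS-12, against 117 and 101 CPM in RPMI8226, a log2 difference of 0.87 (SE 0.14; edgeR, Benjamini-Hochberg adjusted p = 3.26e-05). JCHAIN, the joining chain of polymeric antibodies, had 244 and 265 CPM in KMS-12, against 2673 and 2102 CPM in RPMI8226, a log2 difference of -3.23 (SE 0.18; edgeR, Benjamini-Hochberg adjusted p = 3.83e-10). MZB1, a chaperone of antibody assembly, averaged 128 CPM in KMS-12 and 1074 CPM in RPMI8226. POU2AF1, a coactivator of immunoglobulin promoters, had 5.27 and 6.37 CPM in KMS-12, against 305.5 and 321.2 CPM in RPMI8226, a log2 difference of -5.75 (SE 0.14; edgeR, Benjamini-Hochberg adjusted p = 6.14e-16). CD28, a costimulatory receptor, averaged 6.565 CPM in KMS-12 and 490.5 CPM in RPMI8226. XBP1, the secretory regulator, averaged 195 ± 1.71 CPM in KMS-12 and 332 ± 32.9 CPM in RPMI8226 (SD, n = 2).

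Of the surface proteins used as myeloma targets and the cereblon system, 6 of 18 genes tested were higher and 9 lower in KMS-12. That is 83.3% called, beside 62.5% of all genes. SLAMF7, bound by elotuzumab, had 73.9 and 95.4 CPM in KMS-12, against 6.57 and 8.11 CPM in RPMI8226, a log2 difference of 3.52 (SE 0.45; edgeR, Benjamini-Hochberg adjusted p = 0.000303). CD38, bound by daratumumab, was lower, at 126 and 91.0 CPM in KMS-12 against 327 and 247 CPM in RPMI8226 (log2 difference -1.40, SE 0.20). SDC1, the plasma cell marker CD138, averaged 81.4 ± 11.3 CPM in KMS-12 and 216 ± 32.1 CPM in RPMI8226 (SD, n = 2). TNFRSF17, which encodes BCMA, had 53.3 and 59.9 CPM in KMS-12, against 33.2 and 27.2 CPM in RPMI8226, and did not pass the test (edgeR, Benjamini-Hochberg adjusted p = 0.0525). GPRC5D and FCRL5 were almost without reads in KMS-12, at 0.0542 CPM each, against 4.83 and 6.32 CPM in RPMI8226. CRBN, the receptor of thalidomide analogues, averaged 55.3 CPM in KMS-12 and 39.0 CPM in RPMI8226. Its substrates split: IKZF3 was higher in KMS-12, at 402 CPM against 196 CPM in RPMI8226, and IKZF1 lower, at 31.8 CPM against 94.2 CPM in RPMI8226.

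Most B cell genes tested were lower in KMS-12, with 6 of 27 higher, 18 lower and a median log2 difference of -2.68. Called were 88.9%, beside 62.5% of all genes. CD22 and CD24 had at most 2 reads in any of the 4 libraries and were not tested. BTK, a kinase of the B cell receptor, had 2.74 and 2.59 CPM in KMS-12, against 54.5 and 55.0 CPM in RPMI8226. CD37, a B cell tetraspanin, had 4 reads over the KMS-12 libraries and 3369 over the RPMI8226 libraries. BACH2, a repressor that delays plasma cell differentiation, went the other way, with 61.4 and 65.5 CPM in KMS-12 and 12.9 and 18.2 CPM in RPMI8226, a log2 difference of 2.02 (SE 0.17; edgeR, Benjamini-Hochberg adjusted p = 1.14e-07). PAX5, the B cell identity factor, averaged 0.0899 CPM in KMS-12 and 0.652 CPM in RPMI8226.

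Genes of antigen presentation by MHC class I were lower in KMS-12 throughout the pathway. All 15 genes tested were called lower, with a median log2 difference of -1.99, where 33.2% of all genes were lower. Of the heavy chains, HLA-B had 221 and 223 CPM in KMS-12, against 2419 and 2087 CPM in RPMI8226, a log2 difference of -3.34 (SE 0.12; edgeR, Benjamini-Hochberg adjusted p = 1.36e-13). HLA-E averaged 56.29 ± 5.8 CPM in KMS-12 and 711 ± 139 CPM in RPMI8226 (SD, n = 2 each). The common light chain B2M had 602 and 567 CPM in KMS-12, against 2646 and 1945 CPM in RPMI8226, a log2 difference of -1.97 (SE 0.17; edgeR, Benjamini-Hochberg adjusted p = 3.43e-08). Genes of peptide supply were lower too: the trimming enzyme ERAP1 had a log2 difference of -2.37, the transporter gene TAP2 of -1.84, and NLRC5, the activator of class I promoters, of -1.88. Reads of HLA genes depend on how well each line's alleles match the reference, and this was not tested.

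Class II genes were less uniform, with 3 of 16 higher and 8 lower (68.8% called, near the 62.5% of all genes). The invariant chain CD74 had 193 and 191 CPM in KMS-12, against 1796 and 1501 CPM in RPMI8226, a log2 difference of -3.10 (SE 0.12; edgeR, Benjamini-Hochberg adjusted p = 1.59e-13). HLA-DRA, a chain of HLA-DR, was lower as well, at 24.7 and 30.5 CPM against 151 and 141 CPM in RPMI8226. HLA-DQB1 was higher, at 48.2 and 48.0 CPM in KMS-12 against 1.14 and 1.66 CPM in RPMI8226. Its partner HLA-DQA1 averaged 21.3 CPM in KMS-12 and 26.1 CPM in RPMI8226 and did not pass the test (edgeR, Benjamini-Hochberg adjusted p = 0.185).

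Interferon-stimulated genes were low in KMS-12, with 31 of 39 tested called lower, 0 higher and a median log2 difference of -3.10. Called were 79.5%, beside 62.5% of all genes. Summed over the list, they reached 724 and 755 CPM in KMS-12, against 3049 and 1961 CPM in RPMI8226. The RPMI8226 libraries stood apart from each other: IFI44L had 0.107 and 0.109 CPM in KMS-12, against 125 and 24.1 CPM in RPMI8226, and the antiviral GTPase MX1 had 11.1 and 15.6 CPM in KMS-12, against 243 and 98.6 CPM in RPMI8226. No KMS-12 value of either gene reached the lower RPMI8226 library. EPSTI1 was called lower with a log2 difference of -8.39 (SE 0.76; edgeR, Benjamini-Hochberg adjusted p = 5.82e-05). MX2, a relative of MX1, had the opposite direction, at 132 and 126 CPM in KMS-12 against 42.7 and 19.7 CPM in RPMI8226, but did not pass the test (edgeR, Benjamini-Hochberg adjusted p = 0.164). In JQ1 the RPMI8226 libraries stood apart in the same way, with IFI44L at 135.1 CPM in replicate 1 and 1.366 CPM in replicate 2. The count of lower genes was 20 without RPMI8226 replicate 1, 19 without KMS-12 replicate 1 and 20 without KMS-12 replicate 2. In the 6 DMSO libraries alone and in limma-voom, 1 member was called higher.

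**Figure D2:**
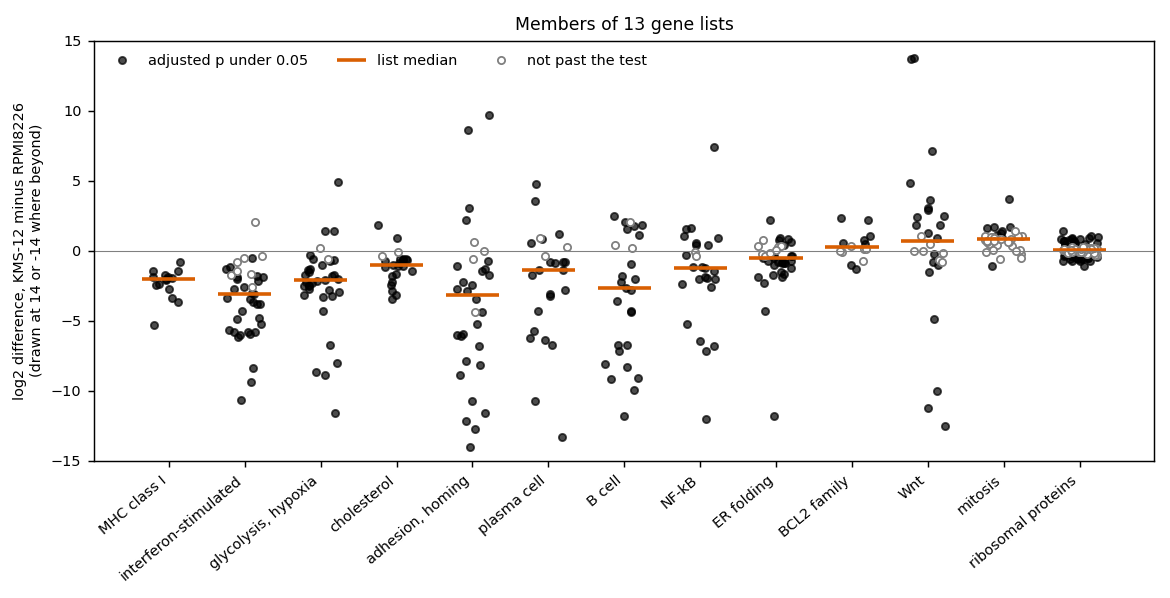
Log2 difference, KMS-12 minus RPMI8226, of each tested member of 13 gene lists; filled points passed the test (adjusted p under 0.05), open points did not, and orange bars mark list medians. The MHC class I genes all lie below 0 with a median of -1.99, while ribosomal protein genes centre on 0.08.

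Glycolysis and the hypoxia response formed another block of lower genes in KMS-12. Of 36 genes tested, 3 were higher and 31 lower, 27 of them at least 2-fold, and the median log2 difference was -2.12. Called were 94.4%, beside 62.5% of all genes. NDRG1, a stress gene induced by low oxygen, had 12.2 and 10.3 CPM in KMS-12, against 1233 and 1168 CPM in RPMI8226, a log2 difference of -6.73 (SE 0.14; edgeR, Benjamini-Hochberg adjusted p = 1.76e-16). CA9, a carbonic anhydrase and classic target of hypoxia-inducible factor, had 0.107 and 0.182 CPM in KMS-12, against 38.8 and 37.0 CPM in RPMI8226. Glucose entry followed the same direction, with SLC2A1 at 21.7 and 19.5 CPM in KMS-12 against 188 and 198 CPM in RPMI8226, a log2 difference of -3.23 (SE 0.17; edgeR, Benjamini-Hochberg adjusted p = 3.58e-10). Along the pathway, the log2 differences were -2.77 for the hexokinase HK2, -4.30 for the isomerase GPI, -2.31 for the phosphofructokinase PFKP, -2.46 for the kinase PGK1, -3.29 for the pyruvate kinase PKM and -1.74 for the lactate dehydrogenase LDHA. Not every step was lower. HK1, the other hexokinase gene, had 27.1 and 25.2 CPM in KMS-12, against 0.593 and 1.08 CPM in RPMI8226, and LDHB had 60.0 and 54.4 CPM in KMS-12, against 21.1 and 21.7 CPM in RPMI8226.

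Cholesterol synthesis was lower in KMS-12 too, with 2 of 23 genes higher and 19 lower and a median log2 difference of -0.98. Called were 91.3%, beside 62.5% of all genes. SREBF2, the transcription factor that drives the pathway, had 122 and 105 CPM in KMS-12, against 674 and 574 CPM in RPMI8226, a log2 difference of -2.45 (SE 0.13; edgeR, Benjamini-Hochberg adjusted p = 1.47e-11). TM7SF2, a sterol reductase, was higher in KMS-12, at 66.6 and 62.0 CPM against 19.4 and 16.8 CPM in RPMI8226. SC5D, a sterol desaturase, was the other member called higher.

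Genes of protein folding in the endoplasmic reticulum had 6 of 36 members higher and 22 lower, with a median log2 difference of -0.54. Called were 77.8%, beside 62.5% of all genes. ERO1B, an oxidase of disulfide formation, had no read in KMS-12 and 19.1 and 20.9 CPM in RPMI8226, and its relative ERO1A averaged 80.4 CPM in KMS-12 and 299 CPM in RPMI8226. The chaperone HSPA5 had 477 and 560 CPM in KMS-12, against 932 and 982 CPM in RPMI8226, a log2 difference of -0.88 (SE 0.23; edgeR, Benjamini-Hochberg adjusted p = 0.00711). DDIT3, which encodes the stress factor CHOP, was higher in KMS-12, at 155 and 153 CPM against 31.3 and 35.5 CPM in RPMI8226 (log2 difference 2.20, SE 0.29). Against a fold of 1.5, 12 members were lower and 2 higher, and in the 4 libraries alone 10 were higher.

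Integrins, adhesion molecules and chemokine receptors had 4 of 32 members higher and 24 lower in KMS-12 (87.5% called, beside 62.5% of all genes). The median log2 difference was -3.15, or -2.81 with genes lacking reads at their bound. Besides ITGB7, the neural adhesion molecule NCAM1, a myeloma marker, had no read in KMS-12 and 36.6 and 40.8 CPM in RPMI8226. SELPLG, the P-selectin ligand, had 14.7 and 13.8 CPM in KMS-12, against 302 and 294 CPM in RPMI8226, a log2 difference of -4.39 (SE 0.24; edgeR, Benjamini-Hochberg adjusted p = 8.42e-08). CXCR4, the marrow homing receptor, had 13.8 and 8.85 CPM in KMS-12, against 52.7 and 51.5 CPM in RPMI8226. ITGB1, the β1 integrin chain, was higher, at 220 and 194 CPM in KMS-12 against 41.4 and 48.6 CPM in RPMI8226, a log2 difference of 2.20 (SE 0.12; edgeR, Benjamini-Hochberg adjusted p = 4.02e-11). ITGA4, the α4 chain that pairs with either β chain, averaged 130 ± 5.68 CPM in KMS-12 and 131 ± 18.9 CPM in RPMI8226 (SD, n = 2), with overlapping libraries. The β1 and β7 partners of the same α chain were thus high in opposite lines.

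Of 26 NF-κB genes tested, 8 were higher and 16 lower in KMS-12 (92.3% called, beside 62.5% of all genes), with a median log2 difference of -1.21. NFKB2, the subunit of the non-canonical pathway, had 42.3 and 38.4 CPM in KMS-12, against 211 and 204 CPM in RPMI8226, a log2 difference of -2.36 (SE 0.10; edgeR, Benjamini-Hochberg adjusted p = 8.48e-13). TRAF3, the inhibitor of that pathway that is often lost in myeloma, had 84.8 and 82.3 CPM in KMS-12, against 28.2 and 28.7 CPM in RPMI8226, a log2 difference of 1.55 (SE 0.09; edgeR, Benjamini-Hochberg adjusted p = 9.87e-11). MAP3K14, the kinase that TRAF3 holds down, averaged 14.57 CPM in KMS-12 and 56.38 CPM in RPMI8226. The pathway's target BIRC3 averaged 54.8 CPM in KMS-12 and 201 CPM in RPMI8226, and the receptor CD40 averaged 0.144 CPM in KMS-12 and 21.3 CPM in RPMI8226. LTBR, the lymphotoxin receptor, was higher, at 8.55 and 8.67 CPM in KMS-12 against 0 and 0.0828 CPM in RPMI8226. REL averaged 87.0 CPM in KMS-12 and 28.1 CPM in RPMI8226.

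Among cytokine and growth factor genes of the IL6 and JAK-STAT pathways, 9 of 31 were higher and 16 lower (80.6% called, beside 62.5% of all genes). SOCS2, a feedback inhibitor induced by STAT5, had 153 and 143 CPM in KMS-12, against 2.57 and 2.19 CPM in RPMI8226, a log2 difference of 5.96 (SE 0.16; edgeR, Benjamini-Hochberg adjusted p = 2.89e-15). STAT5A averaged 38.0 ± 3.13 CPM in KMS-12 and 5.805 ± 2.47 CPM in RPMI8226, and STAT5B averaged 94.6 ± 0.296 CPM in KMS-12 and 33.5 ± 0.470 CPM in RPMI8226 (SD, n = 2 each). SOCS3, the inhibitor induced by STAT3, had the opposite pattern, at 0.249 and 0.291 CPM in KMS-12 against 7.90 and 10.6 CPM in RPMI8226. The signal chain IL6ST was lower in KMS-12 (log2 difference -1.53, SE 0.11) and the receptor IL6R higher (0.70, SE 0.17), while IL6 itself had 1 read over all 4 libraries. HGF averaged 0.0534 CPM in KMS-12 and 20.1 CPM in RPMI8226, and its receptor MET 0.198 CPM in KMS-12 and 14.9 CPM in RPMI8226.

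Wnt genes had 13 of 28 members higher and 8 lower (75% called, beside 62.5% of all genes) and a median log2 difference of 0.68. The number lower fell without KMS-12 replicate 2. LEF1, the nuclear partner of β-catenin, had 83.8 and 71.7 CPM in KMS-12 and no read in RPMI8226, at least 1152-fold higher. The receptor FZD6 had 73.7 and 77.0 CPM in KMS-12 and no read in RPMI8226, at least 1115-fold higher. The ligand WNT5A had 165 and 172 CPM in KMS-12, against 6.32 and 5.42 CPM in RPMI8226, a log2 difference of 4.84 (SE 0.14; edgeR, Benjamini-Hochberg adjusted p = 5.00e-15). LRP6, a coreceptor, was the reverse, with no read in KMS-12 and 13.6 and 14.1 CPM in RPMI8226, while its relative LRP5 was higher in KMS-12, at 94.2 CPM against 50.9 CPM in RPMI8226. AXIN2, a feedback target of the pathway, averaged 1.67 CPM in KMS-12 and 0.330 CPM in RPMI8226, both low.

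Notch genes had 4 of 22 members higher and 13 lower (77.3% called, beside 62.5% of all genes), with a median log2 difference of -1.03. NOTCH1 averaged 18.0 CPM in KMS-12 and 115 CPM in RPMI8226, and NOTCH2 126 CPM in KMS-12 and 523.5 CPM in RPMI8226. The ligand JAG2 had 9.98 and 7.25 CPM in KMS-12, against 36.3 and 31.6 CPM in RPMI8226, and the targets HES1 and HEY1 were lower as well, HES1 without a read in KMS-12. ETS family genes had 3 of 22 higher and 13 lower (72.7% called). ETV5 had 3 reads over the KMS-12 libraries and 159 and 180 CPM in RPMI8226, and ETS2 and ETV1 had no read in KMS-12, against averages of 28.4 and 23.01 CPM in RPMI8226. FLI1, the ETS factor the series studies, had 80.7 and 70.7 CPM in KMS-12, against 86.6 and 71.4 CPM in RPMI8226. Its libraries overlapped, and the log2 difference of -0.06 (SE 0.14) did not pass the test (edgeR, Benjamini-Hochberg adjusted p = 0.736). SMILO (LINC00582), the long non-coding RNA of the series, had 4 and 0 reads in KMS-12, against 6 and 13 in RPMI8226 (edgeR, Benjamini-Hochberg adjusted p = 0.038). That call was lost with library size alone, without a filter, in DESeq2 (0.265), with a replicate block, against a fold of 1.5, without KMS-12 replicate 2 (0.265) and without either RPMI8226 library (0.0623 and 0.251).

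The G1 list held cyclins, their kinases and targets, with the D-type cyclins given above among them. Of its 15 genes, 4 were higher and 4 lower (53.3% called, beside 62.5% of all genes). CDK4 averaged 142 ± 13.7 CPM in KMS-12 and 80.5 ± 2.39 CPM in RPMI8226 and CDK6 226 ± 6.84 CPM in KMS-12 and 542 ± 20.1 CPM in RPMI8226 (SD, n = 2 each), log2 differences of 0.81 (SE 0.10) and -1.26 (SE 0.09) with edgeR Benjamini-Hochberg adjusted p = 2.07e-06 and 1.03e-09. RB1, the brake that both kinases release, averaged 61.1 CPM in KMS-12 and 119 CPM in RPMI8226. Among CDK inhibitors and cell cycle checkpoint genes, 6 of 18 were higher and 8 lower (77.8% called). CDKN1A, which encodes the CDK inhibitor p21, was lower, at 11.01 and 12.2 CPM in KMS-12 against 126 and 97.8 CPM in RPMI8226, a log2 difference of -3.27 (SE 0.21; edgeR, Benjamini-Hochberg adjusted p = 9.89e-08). ZMAT3 and MDM2 shared that direction, with log2 differences of -1.82 for ZMAT3 and -0.63 for MDM2, whereas FAS, BAX and SESN1 were higher.

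Among proliferation genes few passed the test in the fit over all 12 libraries, though most mitosis genes did in the 4 libraries alone. Of 35 mitosis genes, 8 were higher and 1 lower (25.7% called, against 62.5% of all genes), with a median log2 difference of 0.83. UBE2C, a ubiquitin-conjugating enzyme of mitotic exit, had 19.03 and 21.1 CPM in KMS-12, against 1.09 and 1.99 CPM in RPMI8226, a log2 difference of 3.68 (SE 0.54; edgeR, Benjamini-Hochberg adjusted p = 0.000365). MKI67, the Ki-67 gene, had 133 and 159 CPM in KMS-12, against 60.7 and 50.1 CPM in RPMI8226, and did not pass the test (edgeR, Benjamini-Hochberg adjusted p = 0.0872). These counts depend on which libraries set the spread: 27 members were higher and 4 lower in the 4 libraries alone, 14 were higher in limma-voom and 5 in the 6 DMSO libraries. The KMS-11 DMSO libraries, outside the comparison, stood apart for TOP2A (139.8 and 470.4 CPM) and CENPF (72.57 and 220.5 CPM). The part of that spread in the counts was not tested. Without 1 library the number higher was 5 (KMS-12 replicate 1), 2 (KMS-12 replicate 2), 2 (RPMI8226 replicate 1) or 1 (RPMI8226 replicate 2), and none was lower. DNA replication genes had 8 of 36 higher and 5 lower; 4 were higher without RPMI8226 replicate 1, 15 were higher in the 4 libraries alone, and 3 were lower without KMS-12 replicate 1, KMS-12 replicate 2 or RPMI8226 replicate 2. Cytosolic ribosomal proteins had 18 of 67 higher and 18 lower (53.7% called, and 28 higher with library size alone). The mitochondrially encoded genes had 1 of 15 higher and 7 lower (53.3% called).

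Chromatin regulators had 12 of 27 members higher and 7 lower (70.4% called, near the 62.5% of all genes). DNMT3B, a de novo DNA methyltransferase, had 72.9 and 74.5 CPM in KMS-12, against 2.22 and 2.40 CPM in RPMI8226, a log2 difference of 4.99 (SE 0.29; edgeR, Benjamini-Hochberg adjusted p = 1.01e-08). TET1, which oxidises 5-methylcytosine, was higher as well, at 115 and 93.7 CPM in KMS-12 against 9.63 and 6.04 CPM in RPMI8226, and DNMT1 averaged 202 CPM in KMS-12 and 128 CPM in RPMI8226. KDM6A, the H3K27 demethylase recurrently lost in myeloma, had 73.3 and 72.1 CPM in KMS-12, against 8.34 and 7.82 CPM in RPMI8226, a log2 difference of 3.17 (SE 0.16; edgeR, Benjamini-Hochberg adjusted p = 7.57e-11). EZH2, the opposing methyltransferase, averaged 84.6 CPM in KMS-12 and 77.5 CPM in RPMI8226 and did not pass the test (edgeR, Benjamini-Hochberg adjusted p = 0.431). Of 27 tested genes recurrently mutated in myeloma, 9 were higher and 13 lower (81.5% called). TENT5C, a poly(A) polymerase of secretory transcripts, had 59.2 and 63.5 CPM in KMS-12, against 674 and 534 CPM in RPMI8226.

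Redox genes had 9 of 24 members higher and 9 lower (75% called, beside 62.5% of all genes), but held one of the sharpest contrasts. GSTP1, a glutathione transferase, had 184 and 150 CPM in KMS-12, against 0.148 and 0 CPM in RPMI8226, where it had 3 reads (edgeR, Benjamini-Hochberg adjusted p = 2.52e-07). The peroxidase GPX1 was the reverse, at 1.25 and 1.31 CPM in KMS-12 against 56.8 and 41.8 CPM in RPMI8226. Of 15 HOX genes tested, 7 were higher and 6 lower (86.7% called). HOXA3, HOXA4, HOXA5, HOXA6, HOXA10 and HOXC11 were among those higher in KMS-12, and HOXB3, HOXB4, HOXB7, HOXB8, HOXB9 and HOXC4 were lower. HOXA10 had 7.80 and 7.14 CPM in KMS-12 and no read in RPMI8226, and HOXB4 had no read in KMS-12 and 7.90 and 8.11 CPM in RPMI8226. Cancer-testis antigen genes split as well, with 10 of 20 higher and 8 lower (90% called). CTAG2 was higher in KMS-12, at 40.65 and 30.08 CPM against 0.494 and 0.745 CPM in RPMI8226, and MAGEA1 was lower, without a read in KMS-12 and with 17.6 and 18.5 CPM in RPMI8226. Counts of near-identical MAGEA copies are uncertain.

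Well-studied long non-coding RNAs had 9 of 23 members higher and 9 lower (78.3% called, beside 62.5% of all genes). KCNQ1OT1, an imprinted RNA antisense to KCNQ1, had 1073 and 1060 CPM in KMS-12, against 0.543 and 0.414 CPM in RPMI8226, a log2 difference of 11.12 (SE 0.26; edgeR, Benjamini-Hochberg adjusted p = 9.43e-16). CRNDE had no read in KMS-12 and 159 and 153 CPM in RPMI8226. PVT1, the non-coding neighbour of MYC, had 401 and 413 CPM in KMS-12, against 164 and 173 CPM in RPMI8226. Outside the list, LINC02334 had 318 and 341 CPM in KMS-12 and no read in RPMI8226. Whether counting used the strand is not given in the sources used here, so KCNQ1OT1 and other antisense genes cannot be told apart from their partners.

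**Figure D3:**
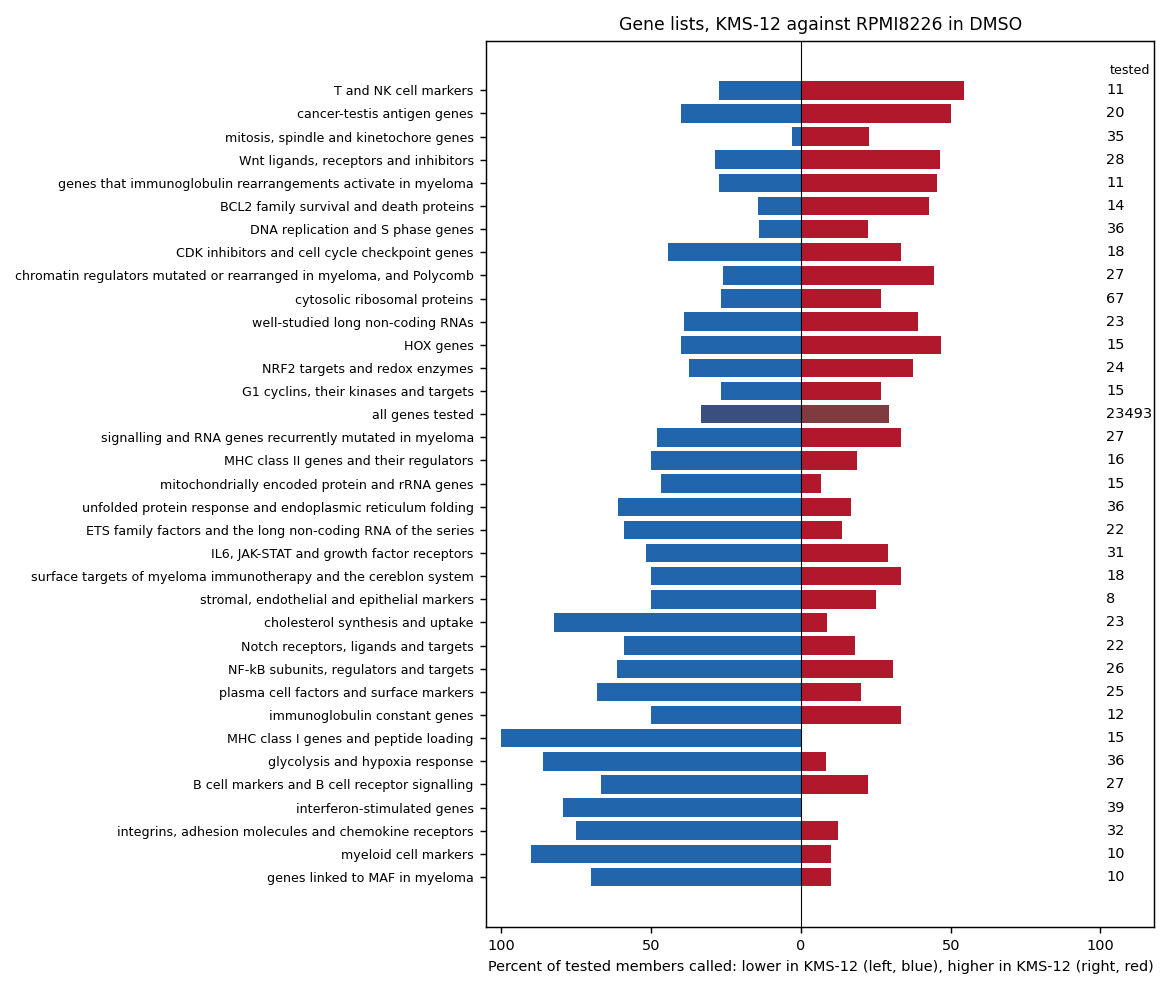
Percent of tested members called lower (blue, left) and higher (red, right) in KMS-12 for 34 gene lists with at least 8 members tested and for all genes, ordered from the highest median log2 difference at the top; the number tested stands at the right. MHC class I reaches 15 of 15 lower, while all genes show 33.2% lower and 29.3% higher.

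Genes of high abundance outside these lists also differed. Among genes higher in KMS-12, RUFY3 had 894 and 794 CPM in KMS-12, against 42.7 and 38.2 CPM in RPMI8226 (log2 difference 4.38, SE 0.12), and the Polycomb gene BMI1 had 590 and 607 CPM in KMS-12, against 32.8 and 27.8 CPM in RPMI8226 (4.31, SE 0.17). PGGHG had a log2 difference of 4.14, ARHGEF12 of 1.89 and the isoleucyl-tRNA synthetase IARS1 of 1.41. Among genes lower in KMS-12, the giant scaffold AHNAK had 136 and 157 CPM in KMS-12, against 2011 and 1987 CPM in RPMI8226 (log2 difference -3.78, SE 0.13), and EEF1A1 had a log2 difference of -1.30. Each of these passed edgeR's test, with Benjamini-Hochberg adjusted p between 2.61e-15 for RUFY3 and 2.56e-07 for EEF1A1.

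Presence and absence of transcripts set the lines apart more strongly in one direction. Of 11110 protein-coding genes at 5 CPM or more in at least 1 of the lines, 345 had at most 3 reads over the 4 KMS-12 libraries, JQ1 included, and 72 had at most 3 reads over the 4 RPMI8226 libraries. By the rule they had at least 5 CPM in the other line, with a median of 15.4 CPM in RPMI8226 for those silent in KMS-12 and 14.1 CPM in KMS-12 for those silent in RPMI8226. The other genes had a median of 44.6 CPM in whichever line was higher. Of the genes silent in KMS-12, 31 reached 100 CPM in RPMI8226, and of those silent in RPMI8226, 3 reached it in KMS-12. LAMB3, a laminin chain, headed the first group, with no read in KMS-12 and 1236 and 1191 CPM in RPMI8226. VIM, the intermediate filament vimentin, had 1 read over the 4 KMS-12 libraries and 423 and 417 CPM in RPMI8226. TRIO, IQGAP2, IGSF10, ADCY1, SULF2, XYLT1, SERPINE2 and ADD2 had no read in KMS-12 DMSO libraries and averages from 213 CPM (ADD2) to 396 CPM (TRIO) in RPMI8226. Silent in RPMI8226 and abundant in KMS-12 were GLDC, the glycine decarboxylase, at 203 and 190 CPM in KMS-12, SPATA31D1 at 110 and 120 CPM, and the histone gene H3C7 at 162 and 163 CPM, whose near-identical copies make its count uncertain. SLC47A1, FAF1, GPR173, PKP3, ZNF69, KCNA4 and ABHD17B were without reads in the RPMI8226 DMSO libraries, at averages from 26.9 CPM (ABHD17B) to 39.7 CPM (FAF1) in KMS-12.

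KMS-11, a further line of the series, expressed part of these genes. It had at least 5 CPM of 185 of the 345 genes silent in KMS-12 (53.6%) and of 24 of the 72 genes silent in RPMI8226 (33.3%), against 88.9% of the other genes. It averaged 1672 CPM of CCND2, 1641 CPM of MAF and 528 CPM of VIM.

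**Figure D4:**
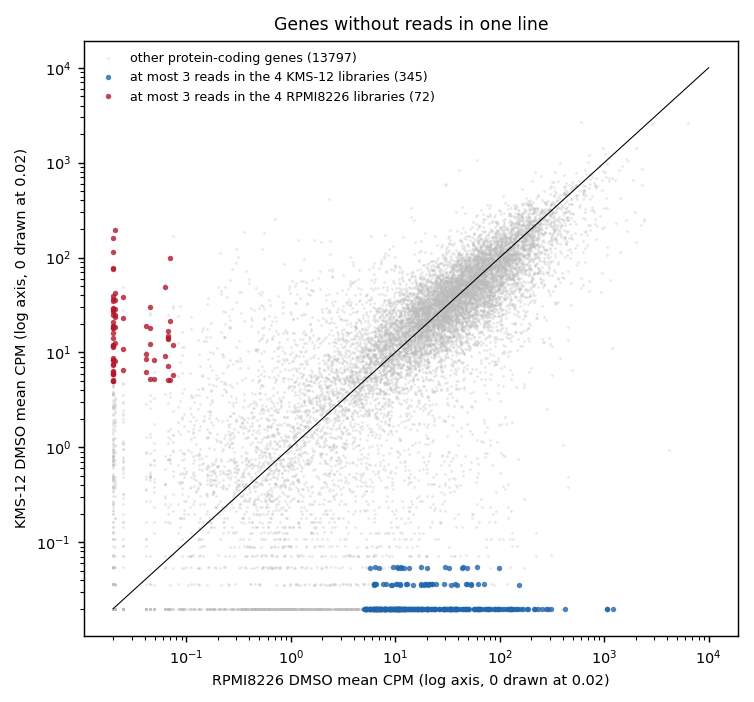
Mean CPM of each protein-coding gene in the KMS-12 DMSO libraries (vertical) against the RPMI8226 DMSO libraries (horizontal), both on log axes with 0 drawn at 0.02. The 345 genes silent in KMS-12 (blue) form the row along the bottom and the 72 genes silent in RPMI8226 (red) the column at the left.

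Some silent genes lay side by side. Among neighbouring protein-coding genes expressed in at least 1 line, 39 runs of 2 or more consecutive genes were silent in KMS-12, holding 93 genes, and 2 runs were silent in RPMI8226, holding 4 genes. On chromosome 19, LILRA2, LILRB1, LILRB4, NLRP7 and NLRP2, genes of the leukocyte receptor region, formed the longest run, with RPMI8226 averages from 8.24 to 82.7 CPM. On chromosome 1, PLXNA2, LAMB3, G0S2 and HSD11B1 formed a run of 4, with 14.64, 1214, 121.3 and 49.2 CPM in RPMI8226. On chromosome 17 the run was SKAP1, HOXB3, HOXB4 and HOXB9. FZD6 and CTHRC1 were neighbours silent in RPMI8226. Whether DNA was lost at any of these places was not measured.

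Promoters of 3 further genes are shown as examples of contrasts of presence and absence: VIM (silent in KMS-12), GSTP1 (nearly silent in RPMI8226) and LEF1 (silent in RPMI8226). CG dinucleotides are in capitals, and the windows, from RefSeq on GRCh38.p14, are given 5′ to 3′ on the gene's strand: chr10:17227991-17228290 (plus), chr11:67583562-67583861 (plus) and chr4:108166252-108166551 (minus). They hold 10, 36 and 9 CG; 56.4%, 12.7% and 58.4% of all promoter windows hold as many or more.
VIM: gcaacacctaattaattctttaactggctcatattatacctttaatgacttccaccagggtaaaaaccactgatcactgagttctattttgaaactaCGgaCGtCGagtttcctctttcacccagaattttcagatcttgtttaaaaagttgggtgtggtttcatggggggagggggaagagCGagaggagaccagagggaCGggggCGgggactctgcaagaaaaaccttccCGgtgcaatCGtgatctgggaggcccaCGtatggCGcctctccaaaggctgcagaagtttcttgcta
GSTP1: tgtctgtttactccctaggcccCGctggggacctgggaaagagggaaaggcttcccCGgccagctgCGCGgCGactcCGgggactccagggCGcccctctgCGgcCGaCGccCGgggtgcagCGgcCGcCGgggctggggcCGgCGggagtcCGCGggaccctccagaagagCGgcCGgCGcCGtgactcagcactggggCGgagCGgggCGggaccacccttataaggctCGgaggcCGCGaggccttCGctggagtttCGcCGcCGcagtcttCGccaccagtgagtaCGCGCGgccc
LEF1: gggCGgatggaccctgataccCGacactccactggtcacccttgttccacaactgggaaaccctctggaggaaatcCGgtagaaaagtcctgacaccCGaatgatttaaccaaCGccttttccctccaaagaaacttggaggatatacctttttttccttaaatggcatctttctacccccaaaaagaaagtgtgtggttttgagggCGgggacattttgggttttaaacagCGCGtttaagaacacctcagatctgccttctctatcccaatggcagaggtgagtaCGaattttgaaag

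The difference between the lines was uneven over the chromosomes. Protein-coding genes of chromosome 5 had the lowest median log2 difference, -0.86, with 404 of 653 tested lower (61.9%) and 100 higher. Chromosomes 18, 22 and 16 followed at -0.85, -0.78 and -0.54. Chromosomes 11, 8, 4 and 9 had the highest medians, 0.41, 0.38, 0.29 and 0.28, beside -0.05 over all protein-coding genes placed. BCL2 lies on chromosome 18 and was higher in KMS-12 although 113 of the 191 genes tested there were lower and 28 higher. Windows of 40 consecutive protein-coding genes with at least 10 CPM in either line were also drawn. Those given are among the most extreme of all overlapping windows, so steeper medians than those of chromosomes follow from that choice. The 40 such genes from NDUFA13 to UQCRFS1 (chromosome 19, 19515736 to 29213541) had a median of 2.05 with 35 higher and 1 lower. At the other end, PTPN7 to HSD11B1 (chromosome 1, 202147013 to 209734950) had a median of -1.91 with 36 lower, LNPEP to SNCAIP (chromosome 5, 96935394 to 122464219) -1.57 with 37 lower, and NLRC5 to MATCAP1 (chromosome 16, 56989485 to 67184040) -1.51 with 37 lower. DNA copy number was not measured, and its part in these medians was not tested.

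**Figure D5:**
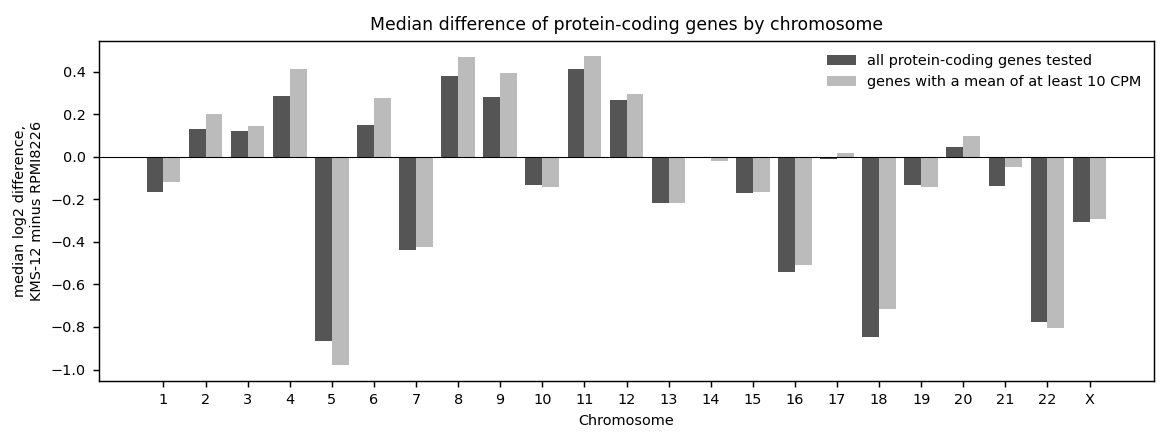
Median log2 difference, KMS-12 minus RPMI8226, of protein-coding genes on each chromosome, for all genes tested (dark bars) and for genes with a mean of at least 10 CPM (light bars). Chromosome 5 is lowest at -0.86 and chromosome 11 highest at 0.41 over all genes tested.

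Most of the difference between the lines was present under JQ1 as well, in libraries other than the DMSO ones. In JQ1, 14242 genes were called (60.6%), and 10382 were called in the same direction in both conditions, 72.9% of the JQ1 calls and 70.7% of the DMSO calls, while 673 were called in opposite directions. CCND1 had 331 and 317 CPM in JQ1-treated KMS-12, against 13.4 and 11.2 CPM in JQ1-treated RPMI8226. BCL2 had 2054 and 2064 CPM in KMS-12 with JQ1, against 432 and 375 CPM in RPMI8226 with JQ1. MCL1 changed order: with JQ1 it had 2394 and 2121 CPM in KMS-12, against 519 and 435 CPM in RPMI8226. The line difference of MCL1 was thus 2.24 on the log2 scale in JQ1 and -1.01 in DMSO, and the interaction passed edgeR's test (Benjamini-Hochberg adjusted p = 3.72e-10). NSD2 also changed order, with a line difference of -0.68 in JQ1 and 0.97 in DMSO. Some genes given above as lower in KMS-12 were higher there with JQ1. With JQ1, CDKN1A averaged 258.2 CPM in KMS-12 and 118.4 CPM in RPMI8226, CD38 260.8 and 93.87 CPM, and HSPA5 1727 and 655.5 CPM. These genes were picked for their changed order.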

How the data were processed

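Total RNA was extracted and made into stranded, ribosomal RNA-depleted libraries, per the labels' protocols. The table of whole-number counts per gene was used as deposited by the authors; the submitters' processing notes name DESeq2, MACS2, hg38 and GRCh38.p13, with aligner, counter, annotation and strand setting not given in the sources used here. Symbols were found for 60437 of 60666 gene IDs (99.62%); classes and positions came from GENCODE 29, which held 58420 IDs (96.3%). In edgeR 4.0.16 (R 4.3.3), genes past filterByExpr (minimum count 10, total 15) were kept, 23493 in all, scaled by TMM and fitted with 6 group means over all 12 libraries. The robust quasi-likelihood F test gave p-values, adjusted by Benjamini-Hochberg over all genes tested. Genes without reads in a line were set at a floor of 3 reads over its 2 DMSO libraries, and such floors cover counting error only. Each SE is the size of the log2 difference over the square root of F, and so takes in the spread between libraries. On simulated counts 14 of 146 calls were false (9.59%), above the threshold of 0.05. Recovered were 25.4% of the genes changed by a fold of 1.5, 77.6% at 2 and 95.5% at 4. Few of the 23493 genes were changed in the simulation, unlike in the data, so this false share need not hold for the calls above.

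The members and the 35 gene lists were chosen with earlier results of these data known. Named genes are the 12 largest differences in each direction among called protein-coding genes with at least 20 CPM in the higher line, the 6 in each direction with the largest difference in CPM, the 5 largest long non-coding RNAs in each direction at 5 CPM or more, the 4 or fewer lowest adjusted p-values per list, and 16 genes always named. Further members given beside them, and VIM, were chosen after their values were seen. Alternatives were other size factors, filters and tools (DESeq2 1.42.0, limma 3.58.1), other sets of libraries, a replicate block, a test against a fold of 1.5, and leaving out each library. Some named genes and windows of genes are not reported here.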

Additional observations from a re-analysis of the deposited data

Results flagged for a closer look

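The line difference itself differed between JQ1 and DMSO for 8 of the 16 genes always named, by the interaction term of the edgeR fit (Benjamini-Hochberg adjusted p). MCL1 had a line difference of 2.24 on the log2 scale in JQ1 and -1.01 in DMSO, a change of 3.26 (edgeR, Benjamini-Hochberg adjusted p = 3.72e-10). MYEOV had 7.70 in JQ1 and 4.23 in DMSO, a change of 3.47 (adjusted p = 4.79e-05, edgeR), and ITGB7 had -9.85 in JQ1 and -12.12 in DMSO, a change of 2.28 (adjusted p = 0.0201, edgeR). Among the plasma cell regulators, PRDM1 changed by 1.82 (adjusted p = 4.53e-06, edgeR) and IRF4 by 1.47 (adjusted p = 2.87e-06, edgeR), both further above RPMI8226 in JQ1. NSD2 changed by -1.65 (adjusted p = 8.3e-05, edgeR), BCL2L1 by -1.95 (adjusted p = 0.0338, edgeR) and FLI1 by 0.59 (adjusted p = 0.0434, edgeR). The change of CCND1, 0.44, did not pass (adjusted p = 0.0566, edgeR). The JQ1 libraries of the lines differed in make-up. The 10 most abundant genes took 39.4% and 39.3% of counts in JQ1-treated KMS-12, against 13.1% and 12.3% in JQ1-treated RPMI8226. TMM factors were 0.7241 and 0.7184, against 1.072 and 1.092, so JQ1 values lean on the scaling. With RLE factors or library size alone, 9 of the 16 interactions passed. No group held enough libraries for a check of single outlying samples.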

How the results depend on the processing

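Of 174 named genes, 171 passed the test. Apart from the 16 genes always named, they were picked among genes already called, so that number was largely set by the choice. Over 15 alternatives 10 of the 174 changed their call and 0 turned direction, with 141 of them tested at a mean of at least 10 CPM. With a mean of at least 10 CPM, fewer genes were tested, and 7495 were called (3676 higher, 3819 lower; 1405 and 1900 at least 2-fold), 7731 in JQ1; genes without reads in a line numbered 165 in KMS-12 and 22 in RPMI8226, the span of chromosome medians was 1.44, against 1.28, and the T and NK median was -5.64. Against a fold of 1.5, 4540 genes were higher and 5 interactions passed. The span was 1.12 without a filter and 1.35 in the 4 libraries alone. Library size alone moved the median of all genes to 0.08 and the share of calls that were higher to 53.4%, against 46.8%. Leaving out 1 library gave 12879 to 13046 calls, and a span of 1.22 to 1.34. List medians near 0 changed sign, the cause not tested: long non-coding RNAs, at 0.00 in the fit reported, were -0.017 with RLE factors and in DESeq2, -0.0019 without a filter, -0.0012 in the 4 libraries and -0.0028 in the 6 DMSO libraries, and ran between -0.0051 and 0.0804 with 1 library left out. With library size alone the G1 median was 0.13 and the redox median 0.14; with 1 library left out G1 ran between -0.0888 and 0.1546, redox between -0.0717 and 0.0753 and ribosomal proteins between -0.057 and 0.1885. DESeq2 called 13237 genes, limma-voom 15054. Replicate numbers were not taken to pair the libraries: r was 0.17 between the DMSO groups and 0.10 to 0.38 between DMSO and JQ1 of a line, but as low as -0.09 over all 15 pairs of groups. With a replicate block 14683 genes were called. Precision is limited by 2 libraries a line.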
